A study of Gossypium hirsutum with 2 samples.

Results

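The enzymes described here are those of the ascorbate-glutathione system of upland cotton (Gossypium hirsutum), with the superoxide dismutases, catalases and peroxiredoxins that work beside it. They were chosen by annotation text: every unigene whose text held the word ascorbate, glutathione, superoxide dismutase, catalase or peroxiredoxin, in either letter case. A unigene is the name in the deposited tables for 1 assembled transcript sequence. The rule found 237 of 136262 unigenes. Of these, 169 fell into 10 enzyme classes by their text, 14 were nucleobase-ascorbate transporters and 54 were other proteins whose names hold one of the words.

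The study sequenced RNA from 2 samples at 10 days post anthesis. FL ovule was ovule of the line XZ142FLM, with the genotype li3li3n2n2, whose seeds are labelled as fuzzless and lintless. WT fiber was taken from the wild-type cultivar Xuzhou142, labelled as normal in fiber development. Each group was 1 library, so no test of the groups was possible, and tissue and genotype cannot be told apart because they differ together. Fiber is a single elongated cell type of the seed surface, and an ovule holds many cell types, so a lower level in FL ovule can be fewer cells of a type or less RNA per cell, which cannot be told apart in these libraries.

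The ascorbate-glutathione cycle removes hydrogen peroxide. Ascorbate peroxidase reduces it with ascorbate as the electron donor, monodehydroascorbate reductase and dehydroascorbate reductase turn the oxidized ascorbate back, and glutathione reductase restores the glutathione that the dehydroascorbate step uses. Superoxide dismutase produces hydrogen peroxide from superoxide, and catalase, glutathione peroxidase and peroxiredoxin remove peroxides by other routes. In cotton fiber, reactive oxygen species are known as signals in cell elongation and in the later turn to wall thickening.

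Library depth was 53.4 M reads in FL ovule and 45.6 M reads in WT fiber. The 30 most-read unigenes held 38.5% of the reads in FL ovule, against 21.1% in WT fiber. RPKM, the unit of level used here, is a read count divided by the unigene's length and by the read total, so every other unigene shares its total with those 30. One read on 1 kb is worth 0.0187 RPKM in FL ovule and 0.0219 RPKM in WT fiber. Marker lists for other cell types differed between the libraries. Summed RPKM was 10912 in FL ovule and 54144 in WT fiber for 303 unigenes of fiber markers, 4341 and 842 for 14 unigenes of seed coat markers, 5029 and 1308 for 143 unigenes of dividing cell markers, 1221 and 1117 for 85 unigenes of embryo and endosperm markers and 61.6 and 28.1 for 26 unigenes of green tissue markers. Within the fiber list, however, protein E6 had 2.53 RPKM in FL ovule and 2.19 RPKM in WT fiber. Tubulin texts gave 8697 and 31423 RPKM of the fiber sums. Without their most abundant unigene, expansin texts summed to 933 RPKM in FL ovule and 397 RPKM in WT fiber, and lipid transfer protein texts to 307 and 329. Fasciclin-like arabinogalactan texts (549 and 1741) and 3-ketoacyl-CoA synthase texts (238 and 2290) stayed higher in WT fiber. No unigene text held the word legumin, 1 of the embryo and endosperm markers. Of the fiber markers, 229 reached 1 RPKM in either library. By the measure defined below, 61 of these lay past 2-fold towards FL ovule and 74 towards WT fiber. These are 26.6% and 32.3%, against 15.3% and 10.5% of all unigenes at that level. The part of these cell types in the results below was not tested.

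Of the 237 members, 231 had reads in FL ovule and 223 in WT fiber. They held 0.558% of the reads of FL ovule and 0.799% of those of WT fiber, and their summed RPKM was 4991 in FL ovule and 6970.1 in WT fiber, a ratio of 0.716 (FL ovule over WT fiber). The term measured is used for unigenes that reached 1 RPKM in FL ovule, in WT fiber or in both, and 136 of the 237 members did. A member can pass this limit through its higher library alone. The other 101 had at most 0.967 RPKM in FL ovule and 0.936 RPKM in WT fiber, and summed to 36.9 RPKM in FL ovule and 28.1 RPKM in WT fiber.

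Differences are given as the log2 ratio of (RPKM + 1) in FL ovule over WT fiber, which understates the difference of low unigenes, and as folds of RPKM without the added 1. Brackets hold exact 95% intervals of the fold from the 2 read counts; they cover counting error only and say nothing of variation between plants. Of the 136 measured members, 26 lay past 2-fold towards FL ovule (19.1%) and 27 towards WT fiber (19.9%). Among all 63258 measured unigenes the shares were 15.3% and 10.5%, and among the 41574 with annotation text they were 15.3% and 13.2%. The median log2 ratio was 0.12 for the measured members, 0.39 for all measured unigenes and 0.22 for those with annotation text.

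The split by direction moved with the scaling. With both libraries set to the same RPKM sum, 14 members lay towards FL ovule and 42 towards WT fiber, where the shares of all measured unigenes were 7.25% and 21%. A TMM factor (trimmed mean of M values) gave 15 and 42 members, against 7.58% and 20.1% of all. Upper quartile scaling gave 18 and 39 members, against 8.85% and 17.4% of all. Read totals that left out the 30 most-read unigenes gave 43 and 20 members, against 28.4% and 6.34% of all. Over all unigenes these scalings moved the median log2 ratio to -0.23, -0.18, -0.04 and 0.69. Under each of the 5 scalings tried, 14 of the 26 and 20 of the 27 members stayed past 2-fold in the same direction, and none of the 53 changed sign. At a limit of 4-fold, 9 members lay towards each library, against 2.19% of all measured unigenes towards FL ovule and 2.8% towards WT fiber, and with 5 RPKM added in place of 1, 9 lay towards FL ovule and 22 towards WT fiber, against 2.9% and 4.57% of all. At 100 RPKM or more in either library, 4 of 19 members lay past 2-fold towards FL ovule and 9 towards WT fiber, against 18% and 48.8% of all unigenes at that level.

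**Figure D1:**
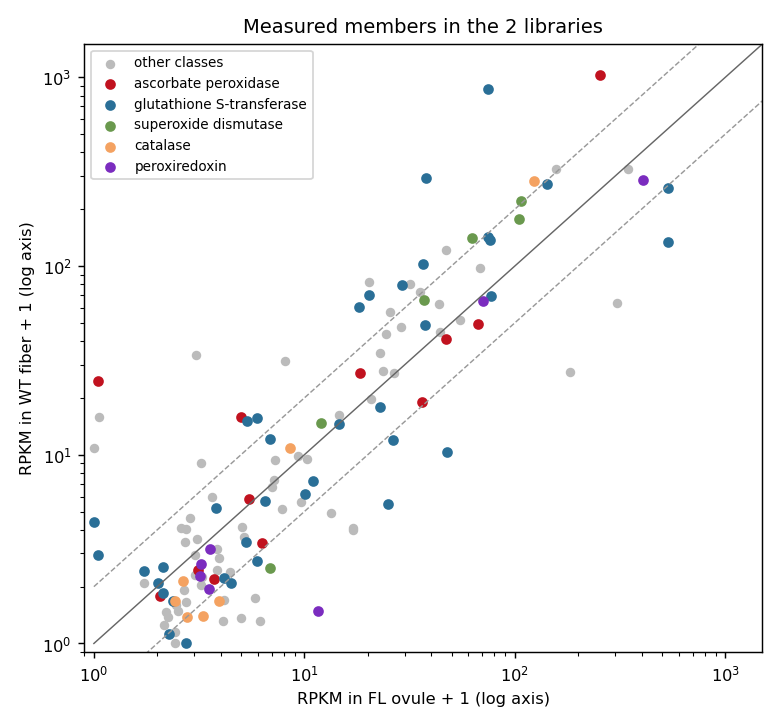
RPKM + 1 of the 136 measured members in FL ovule (horizontal) and WT fiber (vertical), both on log axes, 1 point per unigene, colored by class. The solid line marks equal values and the dashed lines a 2-fold difference; the ascorbate peroxidase at the top right had 254 RPKM in FL ovule and 1029 RPKM in WT fiber.

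Ascorbate peroxidase was the class whose share of the summed member RPKM differed most between the libraries in percentage points. It made up 8.85% of that sum in FL ovule and 17.4% in WT fiber, a share that no scaling of whole libraries alters. Its 28 unigenes summed to 442 RPKM in FL ovule and 1214 RPKM in WT fiber, a ratio of 0.364 that ranged from 0.236 to 0.467 over the scalings. Most of that sum was 1 unigene. Unigene0065368, annotated as cytosolic ascorbate peroxidase 1, had 18367 reads and 254 RPKM in FL ovule, against 63655 reads and 1029 RPKM in WT fiber, and was 4.06-fold lower in FL ovule (3.99 to 4.12). It ranked at 190 among all unigenes by RPKM in FL ovule and at 65 in WT fiber, and was the most abundant member in WT fiber. Without it the class summed to 188 RPKM in FL ovule and 185 RPKM in WT fiber, and all members to 4737 and 5941 RPKM. The lower share and sum of the class in FL ovule thus rest on this unigene. Its high level in WT fiber was known when the enzymes were chosen.

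The paralogs with the same text did not share the difference of Unigene0065368. Unigene0065369, next to it in the numbering, had 35.2 RPKM in FL ovule and 18.1 RPKM in WT fiber, 1.94-fold higher in FL ovule (1.81 to 2.09). Unigene0140046 had 17.4 RPKM in FL ovule and 26.1 RPKM in WT fiber, 1.50-fold lower in FL ovule (1.39 to 1.62). Of the RPKM with this text, Unigene0065368 thus held 82.8% in FL ovule and 95.9% in WT fiber. Its high level in WT fiber is one reason why these enzymes were chosen for description, and its value is given as a description for that reason. Reads of near-identical copies, such as the homoeologs of this polyploid species, could have been divided among unigenes, which makes the value of any single unigene uncertain.

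The chloroplast forms also differed among themselves. Unigene0077803, annotated as stromal ascorbate peroxidase, had 4 reads and 0.0428 RPKM in FL ovule, against 1888 reads and 23.7 RPKM in WT fiber, a 552-fold difference towards WT fiber (215 to 2029) that rests on 4 reads in FL ovule. The other stromal unigene, Unigene0077804, had 4.01 RPKM in FL ovule and 14.9 RPKM in WT fiber, 3.72-fold lower in FL ovule (3.30 to 4.19). Their neighbours in the numbering, 2 partial unigenes of ascorbate peroxidase T, did not follow: Unigene0077805 had 4.45 RPKM in FL ovule and 4.86 RPKM in WT fiber, and Unigene0077806 had 5.26 RPKM in FL ovule and 2.41 RPKM in WT fiber. The thylakoid-bound form, Unigene0144006, had 2.13 RPKM in FL ovule and 1.46 RPKM in WT fiber.

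Other ascorbate peroxidases were close between the libraries or low in both. Unigene0055941 and Unigene0055942, annotated only as ascorbate peroxidase, stood at 66.0 and 46.1 RPKM in FL ovule and at 48.6 and 40.2 RPKM in WT fiber, and their direction flipped under 3 of the 5 scalings. Of the 12 measured ascorbate peroxidases, 0 lay past 2-fold towards FL ovule and 3 towards WT fiber, against 15.3% and 10.5% of all measured unigenes. The 3 include Unigene0065368, whose level was known at selection. Totals that left out the 30 most-read unigenes gave 3 and 3 (28.4% and 6.34% of all), and TMM gave 0 and 4 (7.58% and 20.1%). Without the added 1, Unigene0060951 was 2.32-fold (1.72 to 3.15) and Unigene0077806 2.18-fold (1.55 to 3.10) higher in FL ovule. The remaining 16 unigenes of the class were below 1 RPKM in both libraries, among them all 7 unigenes annotated as ascorbate peroxidase 6 and all 7 annotated as ascorbate peroxidase 4 isoform 1.

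**Figure D2:**
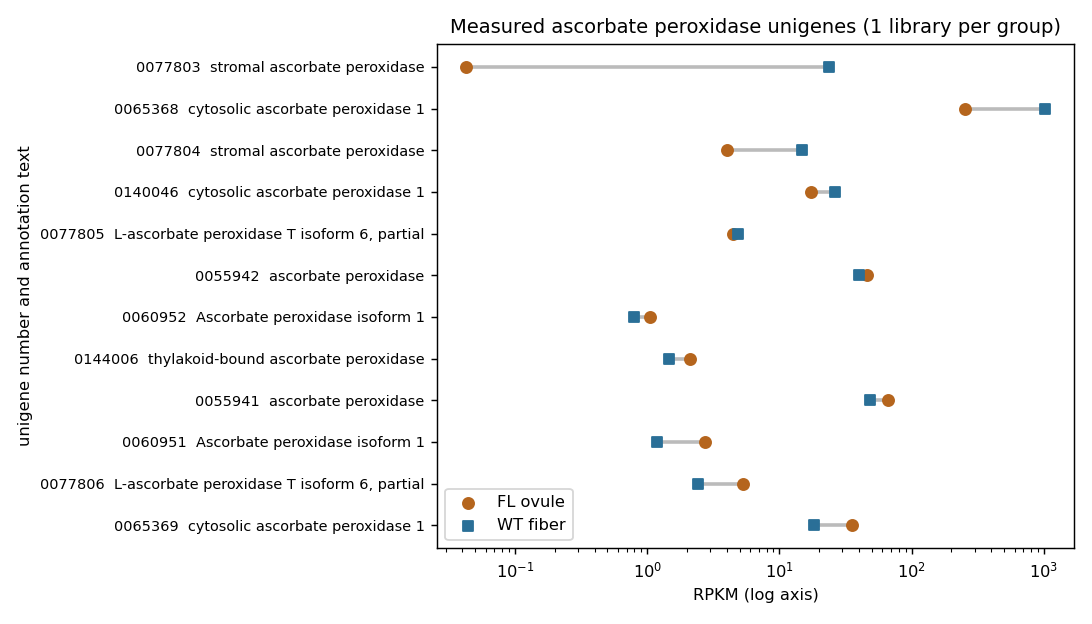
RPKM (log axis) of the 12 measured ascorbate peroxidase unigenes, 1 row per unigene with the last 7 digits of its identifier and its annotation text; circles are FL ovule and squares are WT fiber, 1 library each. Unigene0077803, Unigene0065368 and Unigene0077804, at the top, lie past 2-fold towards WT fiber, while the paralog Unigene0065369, at the bottom, lies 1.94-fold towards FL ovule.

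Of the enzymes that recycle ascorbate, the monodehydroascorbate reductases had a lower sum in FL ovule, although 6 of their 11 measured unigenes had positive log2 ratios, and the dehydroascorbate reductases had nearly level sums. Monodehydroascorbate reductase summed to 160.5 RPKM in FL ovule and 339.9 RPKM in WT fiber over 17 unigenes, a ratio of 0.472 (0.306 to 0.605 over the scalings). All 4 unigenes annotated as its seedling isozyme, with consecutive numbers from Unigene0100363 to Unigene0100366, were past 2-fold towards WT fiber, and they held 136 RPKM in FL ovule and 327 RPKM in WT fiber. With totals that left out the 30 most-read unigenes, 3 of these 4 came within 2-fold, and Unigene0100364 also did under median-ratio scaling. The highest of them, Unigene0100366, had 46.1 RPKM in FL ovule and 121 RPKM in WT fiber, 2.62-fold lower in FL ovule (2.49 to 2.76). Unigene0100365 had 30.8 RPKM in FL ovule and 79.0 RPKM in WT fiber, 2.56-fold lower in FL ovule (2.45 to 2.69). Of the 5 measured unigenes annotated as forms 4 and 6, 4 were higher in FL ovule, none past 2-fold on the (RPKM + 1) scale. The highest of these, Unigene0071986, had 8.64 RPKM in FL ovule and 4.60 RPKM in WT fiber. The low Unigene0071983 had 1.26 RPKM in FL ovule and 0.386 RPKM in WT fiber, 3.27-fold higher in FL ovule (2.14 to 5.14) without the added 1. The only unigene of the class past 2-fold towards FL ovule was Unigene0092805, with 4.03 RPKM in FL ovule and 0.360 RPKM in WT fiber, whose text reads as a bifunctional enzyme with carbonic anhydrase, nectarin-3-like.

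Dehydroascorbate reductase summed to 403 RPKM in FL ovule and 377 RPKM in WT fiber over 5 unigenes, a ratio of 1.07 that flipped to 0.693 with RPKM sums made equal. Unigene0055220, whose text names it a fiber dehydroascorbate reductase, held most of this. It had 19391 reads and 342 RPKM in FL ovule, against 15690 reads and 324 RPKM in WT fiber, a 1.06-fold difference (1.03 to 1.08). Despite the name, this unigene ranked at 130 by RPKM in FL ovule and at 262 in WT fiber. Unigene0055221, annotated as dehydroascorbate reductase, had 53.7 RPKM in FL ovule and 50.4 RPKM in WT fiber. The low Unigene0056286 had 3.10 RPKM in FL ovule and 0.315 RPKM in WT fiber, a 9.83-fold difference (4.29 to 27.7) on 6 reads in WT fiber.

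Glutathione reductase was the least abundant enzyme of the cycle, with 74.2 RPKM in FL ovule and 93.5 RPKM in WT fiber over 5 unigenes. Unigene0085466 had 42.6 RPKM in FL ovule and 62.0 RPKM in WT fiber, 1.45-fold lower in FL ovule (1.40 to 1.52), and Unigene0085467 with the same text had 22.5 RPKM in FL ovule and 26.9 RPKM in WT fiber. A short form, Unigene0123448, had 37 reads in FL ovule and 0 in WT fiber, which makes it at least 10.5-fold higher in FL ovule when 3 reads are allowed for the 0. The ratio of the class sums, 0.793, became 1.02 with totals that left out the 30 most-read unigenes, so its direction depended on the scaling.

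Ascorbate oxidase, a copper enzyme of the cell wall space that oxidizes ascorbate, went the other way. Unigene0086631 had 21440 reads and 182 RPKM in FL ovule, against 2683 reads and 26.6 RPKM in WT fiber, 6.83-fold higher in FL ovule (6.56 to 7.11). The other 2 unigenes of the class were below 1 RPKM in both libraries. Ascorbate oxidase and ascorbate peroxidase both consume ascorbate. Their sums were 182 and 442 RPKM in FL ovule, against 27.2 and 1214 RPKM in WT fiber. Most of the peroxidase sum was Unigene0065368, whose high level in WT fiber was known at selection. Without it the peroxidases summed to 188 RPKM in FL ovule and 185 RPKM in WT fiber. Apart from that unigene, the difference in proportion thus lay in the oxidase.

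Superoxide dismutase, catalase and glutathione peroxidase had lower sums in FL ovule under all 5 scalings. Superoxide dismutase summed to 325 RPKM in FL ovule and 618 RPKM in WT fiber over 10 unigenes, a ratio of 0.526 (0.341 to 0.674). Its abundant unigenes lay close together: Unigene0044080, a chloroplast copper/zinc form, had 106 RPKM in FL ovule and 220.1 RPKM in WT fiber, 2.08-fold lower in FL ovule (1.99 to 2.18). Unigene0071839, whose text gives no metal, had 61.5 RPKM in FL ovule and 139.7 RPKM in WT fiber, 2.27-fold lower in FL ovule (2.18 to 2.36). Both came within 2-fold with totals that left out the 30 most-read unigenes, at log2 ratios of -0.70 and -0.82, and Unigene0044080 also under median-ratio scaling, at -0.91. Unigene0050459, a Cu/Zn form, had 103 RPKM in FL ovule and 177 RPKM in WT fiber, 1.72-fold lower in FL ovule (1.66 to 1.77), and the extracellular Cu/Zn form Unigene0146293 had 11.0 RPKM in FL ovule and 13.7 RPKM in WT fiber. Only Unigene0137044, named copper/zinc superoxide dismutase 2, was past 2-fold towards FL ovule, with 5.90 RPKM there and 1.50 RPKM in WT fiber, a call lost with RPKM sums made equal (log2 ratio 0.99) and with 5 RPKM added (0.75). All 4 unigenes annotated as Fe superoxide dismutase were below 1 RPKM in both libraries.

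Catalase breaks down hydrogen peroxide in peroxisomes. The class summed to 142 RPKM in FL ovule and 297 RPKM in WT fiber over 11 unigenes, and 1 unigene held 86.2% and 95.1% of that. Unigene0055299 had 123 RPKM in FL ovule and 282 RPKM in WT fiber, 2.30-fold lower in FL ovule (2.25 to 2.35); with totals that left out the 30 most-read unigenes its log2 ratio was -0.84, within 2-fold. The ratio of the class sums, 0.480, was within 2-fold under that scaling and median-ratio scaling, at 0.615 and 0.529. The other unigenes had 19.7 RPKM in sum in FL ovule and 14.6 RPKM in WT fiber, a direction that flips with RPKM sums made equal. The most abundant of them, Unigene0046476, had 7.56 RPKM in FL ovule and 9.83 RPKM in WT fiber, and the other 5 measured were higher in FL ovule at low levels, 1 of them changing sign with RPKM sums made equal and with TMM. Among these, Unigene0137592, annotated as catalase 2, had 2.94 RPKM in FL ovule and 0.669 RPKM in WT fiber, 4.39-fold higher in FL ovule (3.05 to 6.51).

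Glutathione peroxidase, which in plants reduces lipid and other peroxides largely with thioredoxin, had no measured unigene with a positive log2 ratio: all 8 lay between -2.03 and -0.03. With totals that left out the 30 most-read unigenes, 3 of the 8 changed sign. The class summed to 96.9 RPKM in FL ovule and 202 RPKM in WT fiber. Unigene0051277, glutathione peroxidase 4, had 19.3 RPKM in FL ovule and 81.7 RPKM in WT fiber, 4.23-fold lower in FL ovule (3.99 to 4.49). The second unigene with that text, Unigene0051278, was closer, with 21.8 RPKM in FL ovule and 33.6 RPKM in WT fiber, so that the pair was nearly level in FL ovule and unequal in WT fiber. Glutathione peroxidase 2 (Unigene0072722) had 2.22 RPKM in FL ovule and 8.09 RPKM in WT fiber, 3.65-fold lower in FL ovule (2.96 to 4.54). The phospholipid hydroperoxide form Unigene0064112 had 23.3 RPKM in FL ovule and 42.5 RPKM in WT fiber, and the 3 unigenes of glutathione peroxidase 6 differed by at most 1.13-fold.

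Peroxiredoxins are thiol peroxidases that work without heme. All 7 measured unigenes had positive log2 ratios, from 0.11 to 2.97, but 4 of the 7 turned negative with RPKM sums made equal and with TMM. The class made up 9.98% of the member RPKM in FL ovule and 5.11% in WT fiber. Its sums, 498 RPKM in FL ovule and 356 RPKM in WT fiber, had a ratio of 1.40, against 0.906 with RPKM sums made equal and 0.916 with TMM. Unigene0146531 held most of the class, with 407 RPKM in FL ovule and 284 RPKM in WT fiber. The mitochondrial-type form, peroxiredoxin IIF (Unigene0049754), had 69.9 RPKM in FL ovule and 64.5 RPKM in WT fiber. The 1-Cys peroxiredoxin Unigene0137031, of a type known from embryos and aleurone of barley and Arabidopsis seeds, had 464 reads and 10.7 RPKM in FL ovule, against 18 reads and 0.484 RPKM in WT fiber, 22.0-fold higher in FL ovule (13.8 to 37.5). That was the largest log2 ratio towards FL ovule of any member. The whole embryo and endosperm list was near level in sum, as given above, and its sets differed. Texts that hold the words 2S albumin, whether or not they name a storage protein, summed to 699.9 RPKM in FL ovule and 282 RPKM in WT fiber. Late embryogenesis abundant texts summed to 421 RPKM in FL ovule and 777 RPKM in WT fiber. The other sets with reads had higher sums in FL ovule. These were vicilin (23.2 and 14.3 RPKM), oleosin (58.7 and 43.5) and leafy cotyledon (18.3 and 0.693). Of 62 measured unigenes of the list, 24 lay past 2-fold towards FL ovule and 13 towards WT fiber. Their shares were 38.7% and 21.0%, against 15.3% and 10.5% of all measured unigenes. The part of these cells in the difference was not tested.

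**Figure D3:**
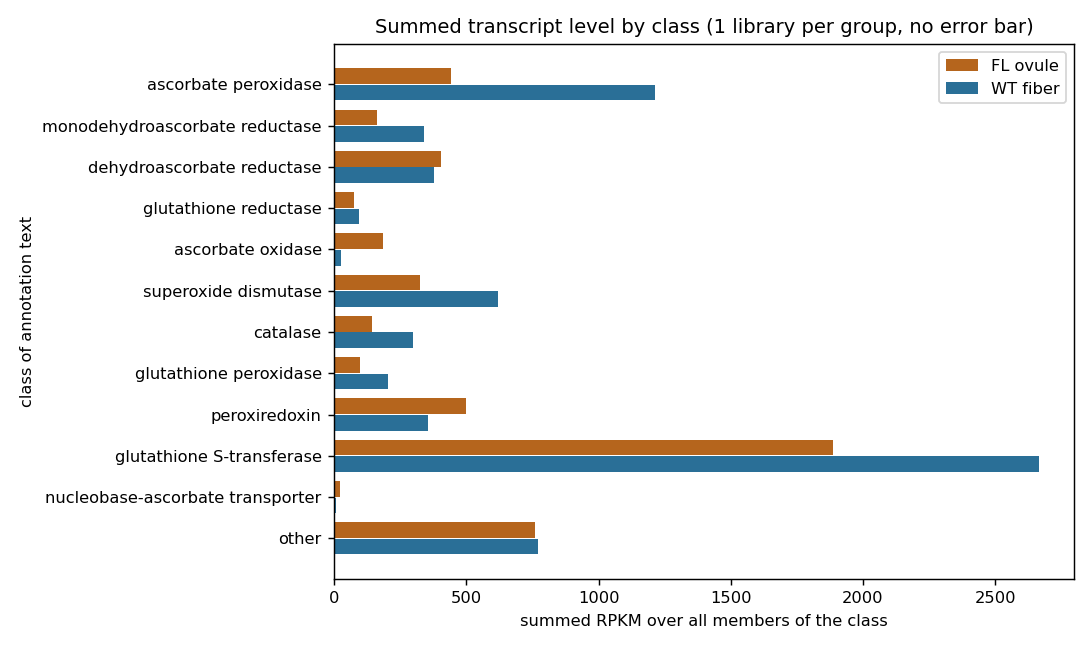
Summed RPKM over all members of each class in FL ovule (upper bar of each pair) and WT fiber (lower bar), 1 library each, so no error bar is drawn. Ascorbate peroxidase had 442 RPKM in FL ovule and 1214 RPKM in WT fiber, and peroxiredoxin had 498 and 356.

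Glutathione S-transferases, which join glutathione to electrophilic compounds and bind other small molecules, were the most numerous and most abundant class in both libraries. Their 67 unigenes summed to 1886 RPKM in FL ovule and 2667 RPKM in WT fiber, and made up 37.8% of the member RPKM in FL ovule and 38.3% in WT fiber. Of 38 measured, 9 lay past 2-fold towards FL ovule and 10 towards WT fiber (23.7% and 26.3%, against 15.3% and 10.5% of all measured unigenes). Behind the near-equal shares, different unigenes were abundant in each library.

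On the WT fiber side stood 2 unigenes with the same text and consecutive numbers. Unigene0055858 had 4020 reads and 73.5 RPKM in FL ovule, against 40503 reads and 867 RPKM in WT fiber, 11.8-fold lower in FL ovule (11.4 to 12.2). Unigene0055857 had 36.7 RPKM in FL ovule and 290.4 RPKM in WT fiber, 7.91-fold lower in FL ovule (7.35 to 8.51). In the deposited RPKM, Unigene0055858 had the largest difference between the libraries of any member, followed by Unigene0065368. The order of these unigenes flips with RPKM sums made equal. Without Unigene0055858 alone, the class sums were 1813 RPKM in FL ovule and 1799.7 RPKM in WT fiber.

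On the FL ovule side stood glutathione S-transferase PHI 9 and a family member without a class name. Unigene0070323 (PHI 9) had 31650 reads and 534 RPKM in FL ovule, against 6713 reads and 133 RPKM in WT fiber, 4.03-fold higher in FL ovule (3.92 to 4.14). It was the most abundant member of all in FL ovule, at rank 86 of all unigenes there and at rank 770 in WT fiber. Unigene0144135 had 531 RPKM in FL ovule and 258 RPKM in WT fiber, 2.06-fold higher in FL ovule (2.01 to 2.10), and lay within 2-fold under 3 of the 5 scalings. Unigene0012950 (46.5 RPKM in FL ovule, 9.32 RPKM in WT fiber) and Unigene0046656 (23.9 and 4.48 RPKM) lay the same way, by 4.98-fold and 5.34-fold.

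By the classes their texts name, tau and phi transferases, both of which are large families particular to plants, leaned apart in summed RPKM. The 10 tau unigenes summed to 115 RPKM in FL ovule and 272 RPKM in WT fiber. The 8 measured had 2 past 2-fold towards FL ovule and 4 towards WT fiber (25% and 50%, against 15.3% and 10.5% of all). Their leading members were the TAU 19 unigenes: Unigene0045443 had 35.8 RPKM in FL ovule and 102 RPKM in WT fiber, and Unigene0045444 had 19.2 RPKM in FL ovule and 69.4 RPKM in WT fiber. TAU 8 (Unigene0046132) had 28.0 RPKM in FL ovule and 78.1 RPKM in WT fiber. The 2 phi unigenes summed to 536 RPKM in FL ovule and 133 RPKM in WT fiber, nearly all of it PHI 9. The second, GSTF3 (Unigene0025083), had 52 reads in FL ovule, against 0 in WT fiber, and was at least 14.8-fold higher in FL ovule. Zeta forms, which take part in tyrosine breakdown, were near level, with 85.6 RPKM in FL ovule and 74.7 RPKM in WT fiber over 2 unigenes. The split into tau, phi and zeta was made after the values were known, and 53 of the 67 texts name none of these classes.

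**Figure D4:**
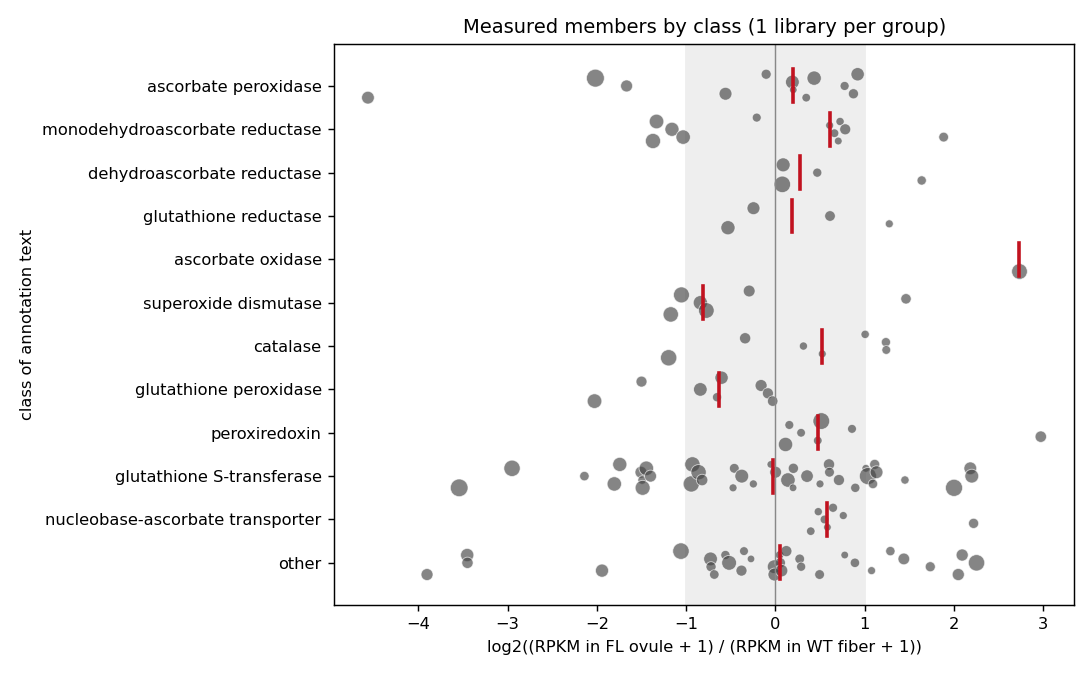
Log2 ratio of (RPKM + 1) in FL ovule over WT fiber for the 136 measured members, 1 point per unigene, in rows by class; points to the right are higher in FL ovule, point area grows with the log2 of the higher RPKM + 1, red bars are class medians, and the grey band is within 2-fold. The glutathione S-transferases run from -3.54 to 2.20, while the 7 measured peroxiredoxins lie right of 0 and the 8 glutathione peroxidases left of it under the deposited scaling; 4 of the 7 and 3 of the 8 change side under at least 1 other scaling.

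In several classes the median and the sum pointed apart. Ascorbate peroxidase had a median log2 ratio of 0.20 and a ratio of sums of 0.364, but its median was negative under 3 of the 5 scalings, as low as -0.30 with RPKM sums made equal. Monodehydroascorbate reductase had a median of 0.61 and a ratio of sums of 0.472, and catalase had a median of 0.53 and a ratio of sums of 0.480; both medians were positive under all 5 scalings. Among the 79 members at 5 RPKM or more in at least 1 library the median was -0.34, with 13 past 2-fold towards FL ovule and 25 towards WT fiber, while the median of all unigenes at that level was -0.06 and their shares past 2-fold were 18.1% and 22%.

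The words of the rule also caught proteins outside antioxidant defence. Lactoylglutathione lyase, or glyoxalase I, detoxifies methylglyoxal with glutathione, and 28 unigenes carried its name, 21 of them measured, with 6 past 2-fold towards FL ovule and 4 towards WT fiber (28.6% and 19.0%, against 15.3% and 10.5% of all measured unigenes). They summed to 637 RPKM in FL ovule and 599 RPKM in WT fiber, a near balance made of opposed members. Unigene0054822 had 303 RPKM in FL ovule and 62.7 RPKM in WT fiber, 4.83-fold higher in FL ovule (4.62 to 5.05). Unigene0063323, of another text, had 156 RPKM in FL ovule and 325 RPKM in WT fiber, 2.09-fold lower in FL ovule (2.04 to 2.14), although it lay within 2-fold under 2 of the 5 scalings. Unigene0032679 had 2.07 RPKM in FL ovule and 32.6 RPKM in WT fiber, 15.7-fold lower in FL ovule (12.8 to 19.5). Unigene0010505 had 2 reads in FL ovule and 427 in WT fiber, a 249.9-fold difference with an interval from 68.7 to 2069.8, and its neighbour Unigene0010504 had 0 reads and 195, which is at least 76.1-fold lower in FL ovule. Unigene0040516 had 16.0 RPKM in FL ovule and 2.99 RPKM in WT fiber, 5.36-fold higher in FL ovule (4.23 to 6.88).

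Glutathione synthetase 2 (Unigene0073300), the last step of glutathione synthesis, was nearly level, with 25.8 RPKM in FL ovule and 26.0 RPKM in WT fiber. S-formylglutathione hydrolase (Unigene0139875), which acts in formaldehyde detoxification, had 67.0 RPKM in FL ovule and 96.3 RPKM in WT fiber. The nucleobase-ascorbate transporters were low, at 20.1 RPKM in FL ovule and 6.81 RPKM in WT fiber over 14 unigenes, and all 7 measured had positive log2 ratios. Unigene0109271 was the highest of them, with 5.14 RPKM in FL ovule and 0.317 RPKM in WT fiber, 16.2-fold higher in FL ovule (6.09 to 61.1) on 4 reads in WT fiber.

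Members sharing a text or a place in the numbering were compared because such unigenes may come from 1 gene or from homoeologs. Among measured members, 34 texts were shared by 94 unigenes, and 4 of these texts held unigenes past 2-fold in both directions: the TAU 19 text, a glutathione S-transferase family text and 2 lactoylglutathione lyase texts. Of 29 runs of consecutive numbers, with 66 unigenes, 0 held unigenes past 2-fold in both directions under the deposited scaling. The runs were mostly pairs and so smaller than the texts with opposed calls. The log2 ratios spread by more than 1 within 7 of them, including the runs of Unigene0065368 and Unigene0077803. With totals that left out the 30 most-read unigenes, these 2 runs did hold opposed calls. Unigene0065368 and Unigene0065369 then had log2 ratios of -1.66 and 1.28, and Unigene0077803 and Unigene0077806 of -4.86 and 1.23. The first pair was also opposed under median-ratio scaling, at -1.87 and 1.06.

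Related genes outside the rule were taken from 5 lists of annotation texts, each with the same calls and the same background shares as above. Ascorbate synthesis had 5 of 17 measured unigenes past 2-fold towards FL ovule and 1 towards WT fiber; the list does not hold the 5 GDP-D-glucose phosphorylase unigenes, of which 0 lay past 2-fold towards FL ovule and 2 towards WT fiber. The 5 towards FL ovule were all myo-inositol oxygenases, which were listed for a proposed side route into ascorbate. They were led by Unigene0051653 with 6.14 RPKM in FL ovule and 0.953 RPKM in WT fiber. The 1 towards WT fiber was a phosphomannomutase-like unigene, Unigene0137751, with 0.706 RPKM in FL ovule and 5.22 RPKM in WT fiber. The single glutathione synthesis unigene, glutamate-cysteine ligase (Unigene0082983), the first step of glutathione synthesis, had 31.4 RPKM in FL ovule and 16.9 RPKM in WT fiber. Thioredoxins and glutaredoxins, small proteins that reduce disulfides, had 16 of 131 measured past 2-fold towards FL ovule and 25 towards WT fiber. The glutaredoxin family protein Unigene0098565 had 0.179 RPKM in FL ovule and 16.1 RPKM in WT fiber, 89.9-fold lower in FL ovule (52.3 to 169). Unigene0139299, with the same text, lay the other way, with 6.46 RPKM in FL ovule and 0.574 RPKM in WT fiber, 11.3-fold higher in FL ovule (8.16 to 15.9).

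Enzymes that produce superoxide or hydrogen peroxide had 13 of 54 measured unigenes past 2-fold towards FL ovule and 6 towards WT fiber. Respiratory burst oxidase protein D (Unigene0054605), an NADPH oxidase of the plasma membrane, had 9.67 RPKM in FL ovule and 1.68 RPKM in WT fiber, 5.76-fold higher in FL ovule (4.42 to 7.64). Glycolate oxidase (Unigene0055490), a peroxisomal source, had 2.23 RPKM in FL ovule and 16.7 RPKM in WT fiber, 7.47-fold lower in FL ovule (5.61 to 10.1). Ferritin, metallothionein and alternative oxidase, which bind metals or bypass the respiratory chain, had 7 of 21 measured past 2-fold towards FL ovule and 4 towards WT fiber. The metallothionein-like Unigene0049097 had 60.4 RPKM in FL ovule and 926 RPKM in WT fiber, 15.3-fold lower in FL ovule (14.7 to 16.0). Unigene0056362 had 53.5 RPKM in FL ovule and 4.27 RPKM in WT fiber, 12.5-fold higher in FL ovule (10.8 to 14.6). Its text reads ferritin/ribonucleotide reductase-like, so the text does not settle whether it is a ferritin. The same holds for Unigene0056361, of the same text, with 20.3 RPKM in FL ovule and 1.75 RPKM in WT fiber. Both are counted among the 7.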

How the data were processed

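The authors deposited 1 table per library. Per the file headers, it gives the count of unique reads per unigene, the unigene's length, its RPKM and its annotation text; the deposited RPKM equals count over length over the header total. Bowtie and Bowtie2 are named in the submitters' processing notes without version or role; the assembler, annotation database, genome build and strandedness were not given in the sources used here. The 2 tables were joined on the unigene identifier, with 0 reads where a unigene was absent from one; 0 identifiers matched RefSeq genes, so no positions or sequences are given. The members and lists were chosen with earlier results of these data known.

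Named unigenes were, per class, the 2 with the largest log2 ratio past 2-fold in each direction at 5 RPKM or more, the most abundant, and ascorbate peroxidases sharing the text of the most WT-fiber-high one; others were named after their values were seen. Intervals are exact Clopper-Pearson. They cover counting error only, since the reads carry no molecular identifiers and may be copies of 1 molecule. Python 3.11.15, scipy 1.17.1 and edgeR 4.0.16 (TMM factor for scaling only) were used; interval code was tested on simulated data. Alternatives changed the pseudocount, filter, fold threshold, scaling and member set.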

Additional observations from a re-analysis of the deposited data

How the results depend on the processing

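No paired analysis was possible because each group has 1 library. The counts of measured members past 2-fold (26 towards FL ovule, 27 towards WT fiber), their median log2 ratio (0.12) and the ratio of summed RPKM (0.716, FL ovule over WT fiber) were recomputed under 13 alternatives, except where an alternative cannot alter a value. After rescaling to a common RPKM sum they became 14, 42, -0.47 and 0.464, and with TMM 15, 42, -0.43 and 0.469. Upper quartile scaling gave a median of -0.31 and a ratio of 0.518, and median-ratio scaling gave 0.25 and 0.790. Totals without the 30 most-read unigenes gave 43 towards FL ovule, a median of 0.47 and a ratio of 0.918. A pseudocount of 0.1 gave 38 towards FL ovule, 27 towards WT fiber and a median of 0.13. Of the members past 2-fold under it, 58.5% lay towards FL ovule, against 71.6% over all unigenes past 2-fold. A pseudocount of 5 gave 9 towards FL ovule and a median of 0.0747. At 5 RPKM or more, 13 lay towards FL ovule with a median of -0.34, and with no filter the median was 0.0785. A 4-fold threshold left 9 in each direction. The 10 enzyme classes alone gave a median of 0.10 and a ratio of 0.680. With 1 unigene per annotation text there were 15 towards FL ovule and 17 towards WT fiber, with a ratio of 0.741, and without unigenes under 300 bases the median was 0.0832. The shifts with scaling follow from its construction, since it multiplies every unigene of a library. Of 29 named unigenes and class sums past 2-fold, 0 changed sign under the scalings and pseudocounts and 12 came within 2-fold under at least 1. Where a library had few reads of a unigene, depth limits the fold, as the wide intervals show.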

Other observations

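The deposited pathway column places 48 further measured unigenes under ascorbate and aldarate metabolism. Of these, 9 lay past 2-fold towards FL ovule and 19 towards WT fiber (18.8% and 39.6%, against 15.3% and 10.5% of all measured unigenes). The column was looked at after the results above were known. Under glutathione metabolism it places 50 further measured unigenes, with 10 past 2-fold towards FL ovule and 5 towards WT fiber, and under peroxisome 142, with 11 towards FL ovule and 20 towards WT fiber. Aldehyde dehydrogenases of family 3, which oxidize aldehydes that form when lipids are peroxidized, had 8 measured unigenes by their texts, 1 past 2-fold towards FL ovule and 7 towards WT fiber, a set chosen after its values were seen. Unigene0075461 had 17.9 RPKM in FL ovule and 138 RPKM in WT fiber, 7.68-fold lower in FL ovule (7.31 to 8.07), and Unigene0072136 had 20.8 RPKM in FL ovule and 143 RPKM in WT fiber, 6.87-fold lower (6.53 to 7.23). The exception, Unigene0092284, had 15.0 RPKM in FL ovule and 6.25 RPKM in WT fiber, 2.40-fold higher in FL ovule (2.17 to 2.66). An aldehyde dehydrogenase 2B4 unigene, Unigene0068515, had 229 RPKM in FL ovule and 65.6 RPKM in WT fiber, 3.48-fold higher in FL ovule (3.38 to 3.58). The other measured 2B4 unigenes there had negative log2 ratios: -0.82 (Unigene0077783), -0.82 (Unigene0078378), -0.29 (Unigene0078379) and -1.35 (Unigene0078380).

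The same column holds 5 unigenes with consecutive numbers, from Unigene0103858 to Unigene0103862, whose texts name galactose-1-phosphate guanylyltransferase and GDP-D-glucose phosphorylase. Activities of this type stand at the committed step of ascorbate synthesis in plants. Unigene0103861 had 26.2 RPKM in FL ovule and 135 RPKM in WT fiber, 5.15-fold lower in FL ovule (4.97 to 5.34), and Unigene0103862 had 7.10 RPKM in FL ovule and 17.0 RPKM in WT fiber. The other 3 lay within 2-fold on the FL ovule side, led by Unigene0103860 with 80.1 RPKM in FL ovule and 57.0 RPKM in WT fiber, a direction that flips with RPKM sums made equal. Summed over the 5, the level was 140.7 RPKM in FL ovule and 224 RPKM in WT fiber.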
